A study of Homo sapiens with 7 samples.

Results

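Of the 26175 genes listed with an RNA-seq level, 41 encode nuclear receptors outside the steroid hormone receptor group. They were chosen by name, as the listed members of the thyroid hormone, retinoic acid, PPAR, REV-ERB, ROR, liver X, bile acid, vitamin D, xenobiotic, HNF4, retinoid X, testicular, NR2E, COUP-TF, estrogen-related, NR4A, NR5A, NR6A and NR0B receptor families. No measured value entered the rule, but earlier results of these data were known when it was set. All 41 were found in the expression table. At an FPKM (fragments per kilobase of transcript, scaled to all mapped fragments) of at least 1, 21 of the 41 were expressed, and a transcription start site was called at 23.

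The cells were T47D/A1-2, a derivative of the human breast cancer line T47D that overexpresses the rat glucocorticoid receptor and carries an integrated luciferase reporter driven by a mouse mammary tumor virus promoter. The sample labels name the line as T-47D. They were cultured in medium with 10% serum and, for 24 hours or more before harvest, in medium with 5% charcoal dextran-treated serum, which is depleted of lipophilic hormones, and no other condition was included. Start-seq sequences short capped nascent RNA from nuclei and places each 5' end at a single nucleotide, and its calls were available for 1 library. Gene TSSs are initiation sites found near annotated gene starts, and for each of them the authors searched the opposite strand for an upstream antisense TSS (uaTSS, up to 1000 nt away) and a downstream antisense TSS (daTSS, up to 2000 nt away). The RNA-seq level of each gene is 1 value over 3 merged replicates. No value therefore has an error between replicates, the depth is unknown, no difference between genes was tested, and the order of genes with close values cannot be told apart from replicate spread.

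Nuclear receptors are DNA-binding transcription factors, many of which are switched by a small lipophilic ligand such as a retinoid, thyroid hormone, vitamin D, an oxysterol or a fatty acid. Thyroid hormone, retinoic acid, vitamin D, PPAR and liver X receptors bind DNA as heterodimers with a retinoid X receptor, on repeats of a core related to AGGTCA. Without ligand, several of these heterodimers recruit corepressors, and with ligand they recruit coactivators. Many of the remaining members are orphan receptors, and the NR0B proteins lack the usual DNA-binding domain.

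The following promoter sequences show members that differed in whether antisense initiation was called around the gene TSS. Each is 300 nt of the GRCh37 reference (the same chromosomes as hg19), read in the direction of the gene from 250 nt before the gene TSS. The gene TSS base and each GGGCGG core, the GC box bound by Sp1-type factors, are in capitals on either strand. NR2F6 (chr19:17356187-17356486, minus strand) had both a uaTSS and a daTSS, RXRA (chr9:137218051-137218350, plus strand) had a uaTSS alone, THRA (chr17:38218899-38219198, plus strand) had a daTSS alone, and NR2F1 (chr5:92918677-92918976, plus strand) had neither. They were taken as the genes with the highest FPKM in each class, with the calls at all gene TSSs of a gene counted together, so that RARG, whose downstream gene TSS had a daTSS alone, counted as having both.
NR2F6: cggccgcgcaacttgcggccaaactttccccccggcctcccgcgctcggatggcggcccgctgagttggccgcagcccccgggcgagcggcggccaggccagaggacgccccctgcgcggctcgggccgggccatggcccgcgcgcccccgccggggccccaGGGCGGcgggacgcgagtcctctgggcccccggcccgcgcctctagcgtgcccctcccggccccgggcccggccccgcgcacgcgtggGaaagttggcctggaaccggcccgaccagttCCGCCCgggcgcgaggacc
RXRA: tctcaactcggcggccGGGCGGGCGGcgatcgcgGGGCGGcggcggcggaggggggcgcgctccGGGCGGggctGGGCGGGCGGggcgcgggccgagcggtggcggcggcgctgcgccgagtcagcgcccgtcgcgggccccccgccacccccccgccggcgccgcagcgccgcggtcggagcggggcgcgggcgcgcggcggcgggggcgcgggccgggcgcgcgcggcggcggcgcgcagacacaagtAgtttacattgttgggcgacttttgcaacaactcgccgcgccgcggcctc
THRA: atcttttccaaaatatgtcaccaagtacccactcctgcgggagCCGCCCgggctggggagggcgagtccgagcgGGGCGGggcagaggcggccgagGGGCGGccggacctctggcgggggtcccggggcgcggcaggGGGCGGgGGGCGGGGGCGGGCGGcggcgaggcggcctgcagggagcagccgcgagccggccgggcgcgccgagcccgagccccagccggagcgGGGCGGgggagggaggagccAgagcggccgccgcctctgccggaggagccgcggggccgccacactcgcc
NR2F1: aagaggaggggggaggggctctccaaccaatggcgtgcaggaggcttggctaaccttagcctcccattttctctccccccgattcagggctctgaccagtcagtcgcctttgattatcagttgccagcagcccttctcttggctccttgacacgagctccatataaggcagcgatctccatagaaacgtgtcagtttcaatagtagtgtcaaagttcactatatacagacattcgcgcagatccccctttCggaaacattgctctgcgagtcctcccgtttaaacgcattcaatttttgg

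GC content of these windows was 81.7% for NR2F6, 84.0% for RXRA, 80.7% for THRA and 51.0% for NR2F1. The GC box core occurred 2 times at NR2F6, 6 times at RXRA and 8 times at THRA, overlapping copies included, and 0 times at NR2F1. The same window held the core at 21 of the 29 members' gene TSSs (72.4%) and at 72.4% of all 10391 gene TSSs. NR2F1 was the sole member whose gene TSS had TATAA or TATAT beginning 24 to 35 nt upstream (first base at -31 with the gene TSS as +1), a motif found there at 1 of 29 members' gene TSSs (3.45%) and 3% of all.

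That motif lies in a stretch of 20 nt which the COUP-TF genes NR2F1 and NR2F2 share exactly. It is in capitals in 80 nt of each promoter, on the plus strand at chr5:92918852-92918931 and chr15:96873856-96873935 of GRCh37. The stretch was found by comparing promoters after the values had been seen.
NR2F1: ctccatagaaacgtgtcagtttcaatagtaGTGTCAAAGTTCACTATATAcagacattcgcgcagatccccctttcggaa
NR2F2: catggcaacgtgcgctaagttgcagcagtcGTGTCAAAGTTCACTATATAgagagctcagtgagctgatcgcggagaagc

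Of the 10391 windows of 300 nt around gene TSSs, only these 2 (0.0192%) contained the 20-nt sequence on either strand. Outside it, compared position by position without gaps, 12 positions were identical in the 30 nt before it and 8 in the 30 nt after it. Likeness in a shifted alignment was not counted. In NR2F1 it ended 26 nt before the called gene TSS and 27 nt before the annotated start. In NR2F2 it ended at the called gene TSS itself, at 96873905, and 24 nt before the annotated start. The letters are thus shared and their distance to the annotated start is similar, whereas the distance to the called position differs between the genes.

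Over the 41 members, FPKM ranged from 0 to 133, with a median of 1.36 beside 0.528 over all genes listed. Among genes listed above 0 the order was opposite, with a median log2(FPKM + 0.1) of 1.61 for members and 2.48 for all genes. The 21 members at or above 1 FPKM were 51.2% of the set (exact 95% interval 35.1 to 67.1, for counting error only), against 46.9% of all genes listed and 60.2% of protein-coding genes. Among genes at or above 1 FPKM, the median was 20.8 FPKM for members and 14.4 FPKM for all genes. There were 11 members at or above 20 FPKM, 14 at or above 10 FPKM and 7 between 1 and 10 FPKM. The lowest member above the limit was NR6A1 at 1.36 FPKM and the highest below it was NR4A2 at 0.696 FPKM. The members' FPKM values summed to 570, and NR2F1, NR2F6 and RARG made up 45.8% of that sum.

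**Figure D1:**
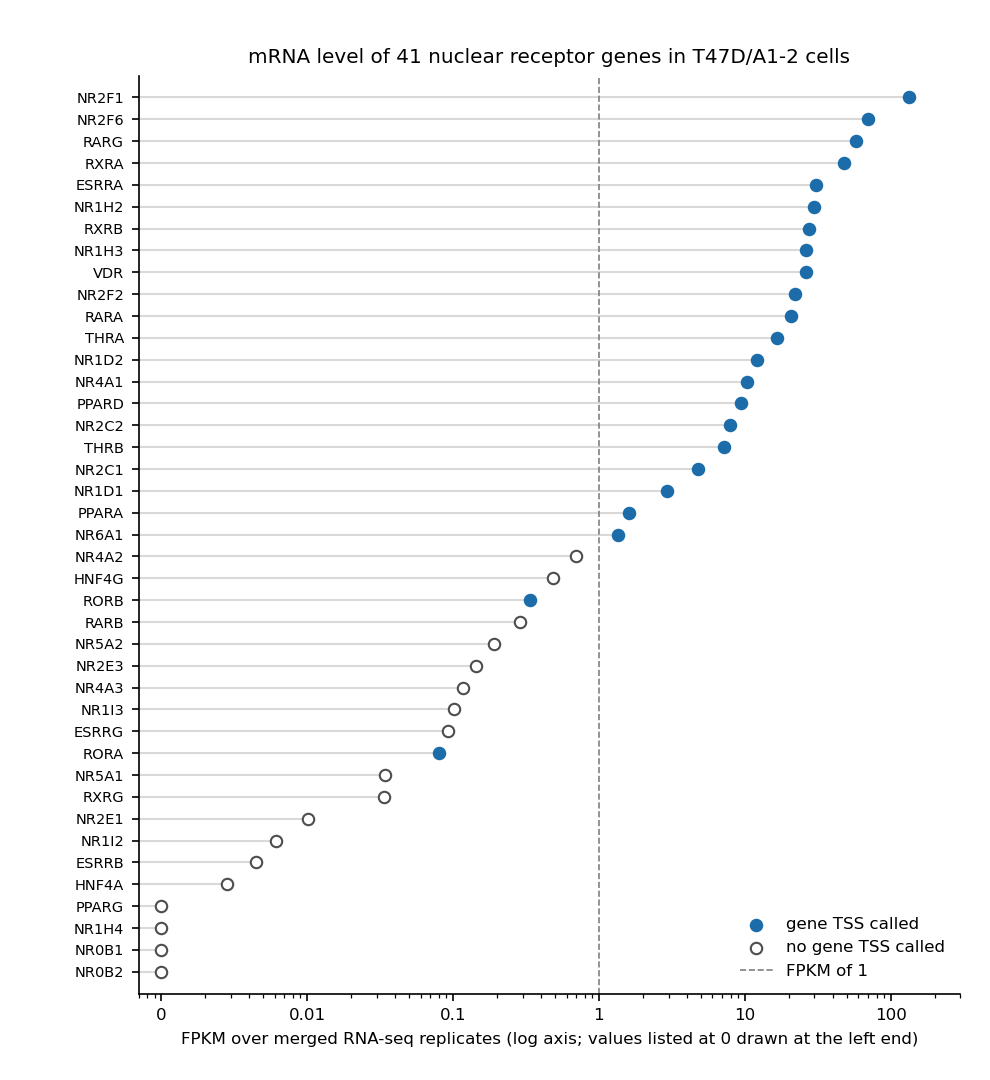
FPKM of the 41 nuclear receptor genes on a log axis, 1 point per gene over merged RNA-seq replicates, with values listed at 0 drawn at the left end and a dashed line at 1 FPKM. Filled points have a called gene TSS: all 21 genes at or above 1 FPKM do, and RORB and RORA are the 2 below it.

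Gene TSSs were called at 23 of the 41 members (56.1%, exact 95% interval 39.7 to 71.5), compared with 41.4% of the 23651 listed genes found in the annotation. Only 18936 of those genes were protein-coding, and the authors searched for gene TSSs only around annotated mRNA starts. The 41.4% is therefore not a like-for-like share for the members, which are all protein-coding. The calls followed the FPKM of the members closely. All 21 members at or above 1 FPKM had a gene TSS (exact 95% interval from 83.9%), compared with 80.3% of protein-coding genes at that level. This comparison by level was not planned, and its interval was computed after the values had been seen. Among the 20 members under 1 FPKM, RORA and RORB had a call, compared with 7.85% of protein-coding genes under 1 FPKM. For the other 18 members, no call means only that no position near an annotated start passed the authors' limit of 5 reads.

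The most abundant group was the COUP-TFs, orphan receptors best known from neural, vascular and cardiac development, and all 3 members were expressed. NR2F1 had 133 FPKM, rank percentile 97.7 among all genes listed. NR2F6 followed with 70.0 FPKM, and NR2F2 had 22.2 FPKM. These genes differed in their initiation patterns. The single gene TSS of NR2F1, on chromosome 5 at 92918927, lay 528374 nt from the nearest other called gene TSS and had no antisense call. NR2F2 had 3 gene TSSs on the plus strand of chromosome 15, more than any other member, at 96869520, 96873905 and 96874859. The first of them had no antisense call, and the others had uaTSSs 123 and 169 nt upstream and no daTSS. NR2F6 had its gene TSS on the minus strand of chromosome 19 at 17356236, inside the gene 492 nt downstream of the nearest annotated start, with a uaTSS 781 nt upstream and a daTSS 1263 nt downstream.

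All 3 retinoid X receptor genes encode the shared heterodimer partner, and 2 of them were expressed. RXRA was listed at 47.9 FPKM and RXRB at 27.6 FPKM, whereas RXRG was listed at 0.0336 FPKM and had no gene TSS. The gene TSS of RXRA, at 137218301 on the plus strand of chromosome 9, fell on an annotated transcript start and had a uaTSS 391 nt upstream. RXRB initiated on the minus strand of chromosome 6 at 33168404. The expression table places RXRB on an alternate haplotype sequence of chromosome 6, as it does 256 genes in all, and the effect of this on its FPKM was not tested.

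Retinoic acid receptors, which bind all-trans retinoic acid, showed a similar split within the family. RARG had 58.2 FPKM and RARA 20.8 FPKM, while RARB, a retinoic acid target gene in many epithelia, had 0.287 FPKM and no gene TSS. RARG had gene TSSs on the minus strand of chromosome 12 at 53625980 and 53614122, 11858 nt apart. A uaTSS was called 336 nt upstream of the first, and daTSSs were called 738 nt downstream of the first and 337 nt downstream of the second. RARA had gene TSSs on the plus strand of chromosome 17 at 38465455 and 38474525, 9070 nt apart, with uaTSSs 122 and 183 nt upstream and no daTSS. The latter uaTSS lay 586 nt downstream of the annotated start of ENSG00000287644 on the opposite strand. Antisense initiation at the alternative promoters thus included daTSSs at both sites in RARG and at neither in RARA.

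Both thyroid hormone receptors were expressed, THRA at 16.6 FPKM and THRB at 7.16 FPKM. THRA, on the plus strand of chromosome 17 with its gene TSS at 38219149, had a daTSS 479 nt downstream in an intron and no uaTSS. THRB, on the minus strand of chromosome 3 at 24537196, had a uaTSS 118 nt upstream and no daTSS. That uaTSS lay at -134 nt relative to the annotated start of the antisense gene THRB-AS1.

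VDR, the receptor for active vitamin D, had 26.2 FPKM, and the other receptors of its list were little expressed. NR1I3, a xenobiotic receptor of liver, had 0.102 FPKM. NR1I2, the pregnane X receptor, had 0.00611 FPKM, and NR1H4, the bile acid receptor, was listed at 0. The gene TSS of VDR, on the minus strand of chromosome 12 at 48298824, had a uaTSS 110 nt upstream and a daTSS 1579 nt downstream, the most distant daTSS of the 11. The uaTSS lay 29 nt downstream of the annotated start of ENSG00000278385, a gene on the opposite strand. Liver X receptors sense oxysterols, and both were expressed, NR1H2 at 29.7 FPKM and NR1H3 at 26.4 FPKM. NR1H2 initiated on the plus strand of chromosome 19 at 50879792 with a uaTSS 185 nt upstream. NR1H3, on the plus strand of chromosome 11 at 47270714, had neither antisense call.

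The PPARs respond to fatty acids and their derivatives, and their levels were spread widely. PPARD had 9.46 FPKM and PPARA 1.61 FPKM, while PPARG, the regulator of fat cell differentiation, was listed at 0 with no gene TSS. PPARD had a daTSS 481 nt downstream of its gene TSS at 35310403 on the plus strand of chromosome 6, and no uaTSS. PPARA, at 46546396 on the plus strand of chromosome 22, had neither.

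REV-ERBs and RORs act as repressors and activators on the same elements in the circadian clock. NR1D2 had 12.2 FPKM and NR1D1 2.95 FPKM, and each had a daTSS and no uaTSS. For NR1D2, on the plus strand of chromosome 3 at 23986837, the daTSS lay 1216 nt downstream and 29 nt downstream of the annotated start of NKIRAS1, a gene on the opposite strand. For NR1D1, on the minus strand of chromosome 17 at 38256985, it lay 485 nt downstream in an exon. The authors dropped daTSSs within 1000 nt of an annotated start on the same strand, but that of NR1D2 was kept under their annotation. Whether the NR1D2 daTSS is a start of NKIRAS1 was not tested. RORs had little mRNA, 0.338 FPKM for RORB and 0.0797 FPKM for RORA, yet gene TSSs were called at both. RORA had gene TSSs on the minus strand of chromosome 15 at 61521496 and 60884727, 636769 nt apart and without antisense calls. RORB, on the plus strand of chromosome 9 at 77111833, was called at -418 nt relative to its nearest annotated start and had a daTSS 208 nt downstream.

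Among the estrogen-related receptors, orphan regulators of mitochondrial and energy metabolism genes, ESRRA alone was at or above 1 FPKM. It had 30.9 FPKM and initiated on the plus strand of chromosome 11 at 64073628 without antisense calls. ESRRG had 0.0927 FPKM and ESRRB 0.00445 FPKM. NR4A genes are rapidly induced by many stimuli, and NR4A1 had 10.4 FPKM, NR4A2 0.696 FPKM and NR4A3 0.118 FPKM. NR4A1 had gene TSSs on the plus strand of chromosome 12 at 52416905 and 52445917, 29012 nt apart. A daTSS lay 676 nt downstream of the first and a uaTSS 916 nt upstream of the second, the most distant uaTSS of the 14.

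The testicular orphan receptors were both expressed, NR2C2 at 7.87 FPKM and NR2C1 at 4.78 FPKM. NR2C1, on the minus strand of chromosome 12 at 95467368, had a uaTSS 189 nt upstream and a daTSS 192 nt downstream, the closest daTSS of the 11. NR2C2, on the plus strand of chromosome 3 at 14989065, had a uaTSS 93 nt upstream, at -7 nt relative to the annotated start of the antisense gene FGD5-AS1. NR6A1, the germ cell nuclear factor, had 1.36 FPKM and a uaTSS 453 nt upstream of its gene TSS at 127533527 on the minus strand of chromosome 9.

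The HNF4, NR5A, NR2E and NR0B groups had no member at or above 1 FPKM and no gene TSS. The HNF4 receptors of liver and gut had 0.485 FPKM for HNF4G and 0.00281 FPKM for HNF4A. NR5A2, of liver and pancreas, had 0.192 FPKM, and NR5A1, the regulator of adrenal and gonadal steroid synthesis, had 0.0341 FPKM. NR2E3 of photoreceptors had 0.143 FPKM, and NR2E1 of neural stem cells had 0.0101 FPKM. NR0B1 and NR0B2, which act mainly by repressing other receptors, were listed at 0. In all, 16 members lay above 0 and under 1 FPKM and 4 were listed at 0.

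The 23 members had 29 gene TSSs, since 5 members (21.7%, exact 95% interval 7.46 to 43.7) had several, compared with 4.35% of the 9790 genes with a gene TSS. That comparison was not planned, and its interval was computed after the values had been seen. The authors called a single gene TSS per search window and merged overlapping windows of the same gene. Genes whose annotated starts lie close together could therefore not have several. Such genes are included in the 4.35% and were not counted, so it is not a like-for-like share. The gene TSSs of NR2F2 at 96874859 and NR4A1 at 52445917 lay at -907 and 670 nt relative to the nearest annotated start. The share with several was not computed with a joining distance of 500 nt, which would leave both out. The gene TSSs of a gene share its FPKM and are not independent. A uaTSS was called at 14 of the 29 (48.3%, exact 95% interval 29.4 to 67.5), beside 53.1% of all gene TSSs. A daTSS was called at 11 (37.9%, interval 20.7 to 57.7), beside 28.4% of all. The share over all gene TSSs lay inside the members' interval for both kinds of call.

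Both kinds of antisense TSS were called at 4 gene TSSs of members (13.8%), those of NR2F6, VDR, NR2C1 and the upstream site of RARG, beside 17.5% of all gene TSSs. A daTSS without a uaTSS was called at 7 (24.1%, interval 10.3 to 43.5), beside 11% of all, and a uaTSS alone at 10 (34.5%), beside 35.6%. Neither was called at 8 (27.6%), beside 35.9%. The intervals of all 4 classes contained the share over all gene TSSs.

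**Figure D2:**
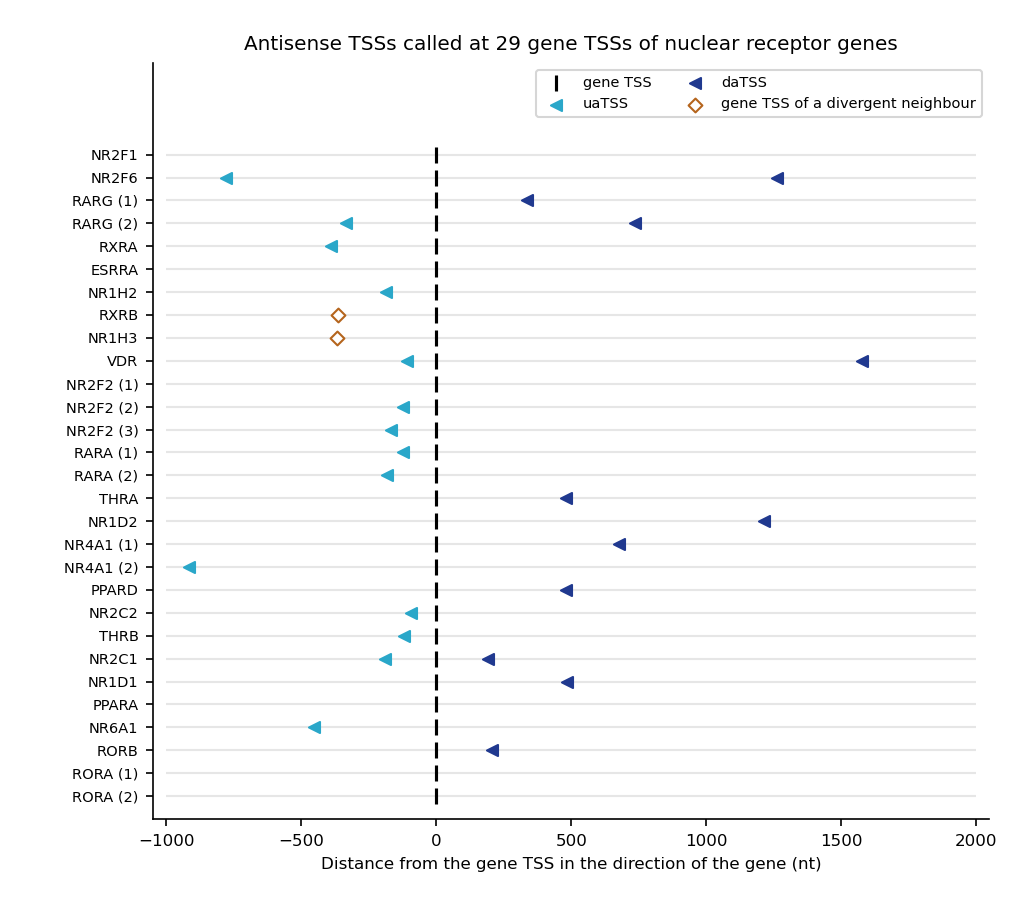
Positions of uaTSSs (light arrowheads) and daTSSs (dark arrowheads) in nt from each of the 29 gene TSSs (dashes at 0), read in the direction of the gene, with genes in order of FPKM, gene TSSs of a gene numbered by coordinate, and open diamonds for gene TSSs of divergent neighbours. The 14 uaTSSs lie 93 to 916 nt upstream and the 11 daTSSs 192 to 1579 nt downstream.

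The median gene TSS-uaTSS distance of members was 184 nt (exact order-statistic 95% interval 118 to 453), beside 200 nt over all gene TSSs, and 9 of 14 (64.3%) were within 200 nt, beside 50.2%. The median gene TSS-daTSS distance was 485 nt (interval 208 to 1263), beside 507 nt. The daTSSs of THRA, PPARD and NR1D1 lay 479, 481 and 485 nt downstream, so 3 of 11 (27.3%) fell between 450 and 500 nt, beside 6.5% of all daTSSs. That range and the limit of 200 nt were chosen after the values had been seen. Those of NR1D2, NR2F6 and VDR lay beyond 1000 nt (27.3%, beside 15.2%). By annotation, 6 of the 11 daTSSs were in an intron of the member (54.5%, beside 60.2% of all daTSSs in an intron of their gene) and 4 in an exon (36.4%, beside 35.7%), and that of RORB was outside the annotated gene (9.09%, beside 4.1%).

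The daTSSs of members were also compared by the bases at which they began. The 25 nt centered on each are given on the antisense strand, with the base before the daTSS and the daTSS base in capitals, to show the dinucleotide at which antisense RNA started. Coordinates of the daTSS base are given with each gene in GRCh37.
THRA (chromosome 17, 38219628): gactggccggaCAgaggccgggcgg
PPARD (chromosome 6, 35310884): gctagatagggCAgtggattcagga
NR1D1 (chromosome 17, 38256500): cagcaaggtctTGgggtggccggac
NR1D2 (chromosome 3, 23988053): ggatctggaagCAgtttttaagact
RARG (chromosome 12, 53625242): cctatcctatgCAccagtccttcgg
RARG (chromosome 12, 53613785): gtccggcgaaaCAggagccgccggt
VDR (chromosome 12, 48297245): tggtctggctgCAtgccagccctga
NR2F6 (chromosome 19, 17354973): cggaaacgtttCActccctgcccgt
NR4A1 (chromosome 12, 52417581): cagcggggagcCAcagcaccctgtg
NR2C1 (chromosome 12, 95467176): ttgcgccctgcTGactccggcgtcg
RORB (chromosome 9, 77112041): gacggggaattCGagactgtccgaa

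All 11 daTSSs of members began at a pyrimidine followed by a purine (exact 95% interval from 71.5%), the dinucleotide typical of initiation by RNA polymerase II, beside 66.9% of all daTSSs. In 8 of the 11 (72.7%, interval 39.0 to 94) it was CA, beside 39.6%. The exceptions were TG at NR1D1 and NR2C1 and CG at RORB. At the members' uaTSSs the counts were 10 of 14 for pyrimidine-purine (71.4%, beside 64.7% of all uaTSSs) and 5 of 14 for CA (35.7%, beside 29.9%). At their gene TSSs they were 17 of 29 (58.6%, beside 66.1%) and 8 of 29 (27.6%, beside 30.3%). These dinucleotides were compared as a description, and no difference between the classes was tested. The comparison was not planned, and its intervals were computed after the values had been seen.

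THRA and NR1D1 are neighbours that converge on chromosome 17, and their annotated 3' ends overlap by 1075 nt. Their gene TSSs lay 37836 nt apart, and at both genes a daTSS and no uaTSS was called, at 479 and 485 nt. The expression table gives both genes the same locus, with 16.6 FPKM for THRA and 2.95 FPKM for NR1D1. The genes lie on opposite strands and the study's RNA-seq libraries were strand-specific, but whether strand was used when the FPKM was computed is not given in the sources used here.

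**Figure D3:**
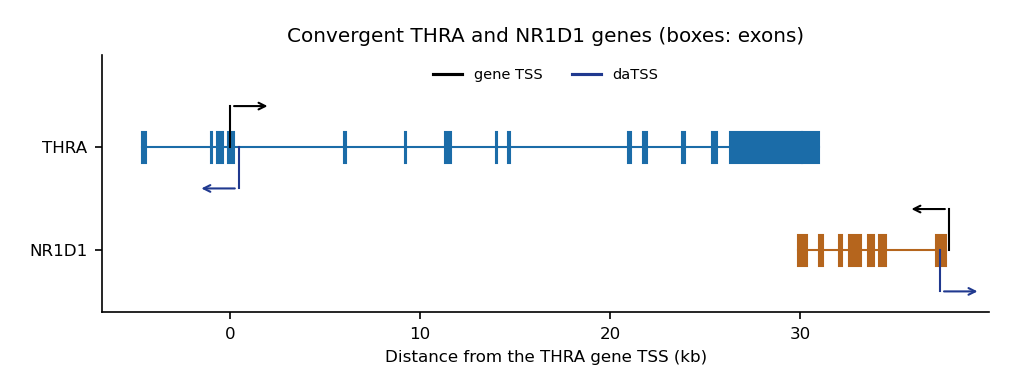
THRA and NR1D1 drawn to scale in kb from the THRA gene TSS, with boxes for annotated exons, black arrows for gene TSSs and dark blue arrows for daTSSs. The exons of the genes overlap at their 3' ends, and each daTSS lies close inside its own gene, 479 nt from the gene TSS of THRA and 485 nt from that of NR1D1.

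NR1H3 and RXRB, which had no uaTSS, each had a divergent neighbour. The lysosomal phosphatase gene ACP2 (43.1 FPKM) had its gene TSS 367 nt upstream of that of NR1H3 on the opposite strand. The zinc transporter gene SLC39A7 (182 FPKM) had its gene TSS 365 nt upstream of that of RXRB. A divergent gene TSS within 1000 nt was present at these 2 of 29 gene TSSs (6.90%), beside 11.5% of all. Antisense initiation upstream of NR1H3 and RXRB was thus called as a gene TSS of the neighbour and not as a uaTSS. The upstream antisense TSSs of the neighbours lay between each pair, on the strand of the receptor gene. That of ACP2 lay 268 nt upstream of the gene TSS of NR1H3 and 99 nt from its own, and that of SLC39A7 lay 203 nt upstream of the gene TSS of RXRB and 162 nt from its own. The gene TSS of NR1H3 was itself called 207 nt downstream of its nearest annotated start. Whether the uaTSS of ACP2 is a start of NR1H3 was not tested.

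The core AGGTCA, which many members bind, was looked for from 250 nt before to 50 nt after each gene TSS on both strands. It occurred at 3 of the members' 29 gene TSSs (10.3%, exact 95% interval 2.19 to 27.4), beside 9.39% of all gene TSSs, so its share was close to the background. The matches are shown in capitals in the direction of the gene, with the core on the opposite strand in NR4A1. They began at positions +3 in ESRRA, +26 in NR2C1 and +28 in the downstream promoter of NR4A1, with the gene TSS as +1.
ESRRA: tgggtcaaAGGTCAtcgcaccg
NR2C1: cgagaaagAGGTCAcgaactct
NR4A1: ttggtggcTGACCTgtggaggg

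In ESRRA the match followed a GGGTCA in the same direction by 1 nt, spanning the gene TSS. Such a direct repeat of AGGTCA or GGGTCA with a gap of 1 nt was present at 17 of all gene TSSs (0.164%), and ESRRA was the sole member with it. The repeat was looked for after the values had been seen. With GGGTCA counted as well, 7 of 29 gene TSSs of members held a core (24.1%), beside 21.1% of all. A match in these letters is not evidence of binding.

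Genes for proteins that receptors recruit were described by their mRNA level. Of 14 coactivator genes, 12 were at or above 1 FPKM, with a median of 14.8 FPKM, and 11 had a gene TSS. Those under 1 FPKM were PPARGC1A at 0.566 FPKM and PPARGC1B at 0.594 FPKM, coactivators of PPARs and estrogen-related receptors. A gene TSS was called at both of them, but not at NCOA1 (12 FPKM), KAT2B (6.57 FPKM) or CARM1 (34.1 FPKM). Of the 12 coactivator genes at or above 1 FPKM, 9 thus had a gene TSS. All 9 corepressor genes were at or above 1 FPKM and had a gene TSS, with a median of 18.3 FPKM. Among all protein-coding genes at or above 1 FPKM, 80.3% had a called gene TSS. NCOR1 had 16.1 FPKM, and the histone deacetylase gene HDAC3 of the same complex had 49.2 FPKM.

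Genes that make, carry or break down the ligands were spread from 0 to 407 FPKM. In retinoid handling, 6 of 16 were at or above 1 FPKM and the median was 0.137 FPKM. CRABP2, which carries retinoic acid to its receptors, was the highest at 407 FPKM, and the retinol dehydrogenase gene RDH11 had 79.1 FPKM. The retinoic acid hydroxylase gene CYP26A1 had 0.449 FPKM, and the fatty acid binding protein gene FABP5 was listed at 0. Of the genes with a called gene TSS, 38 were also listed at 0, but FABP5 had no called gene TSS. Whether a value of 0 was a failed estimate was not tested, for FABP5 or for any other gene listed at 0. Of 4 vitamin D genes, CYP2R1 had 12.6 FPKM and CYP27B1, which makes the active hormone, 1.27 FPKM. CYP24A1, which breaks it down and is a direct target of VDR, had 0.00436 FPKM. None of 6 genes of thyroid hormone activation and transport reached 1 FPKM, with the transporter gene SLC16A10 highest at 0.792 FPKM.

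Of 12 sterol and fatty acid targets of liver X receptors and PPARs, 9 were at or above 1 FPKM, with a median of 12.8 FPKM. CPT1A, for mitochondrial fatty acid import, had 81.4 FPKM and SREBF1, the regulator of fatty acid synthesis, 79.3 FPKM. ABCA1, the cholesterol exporter, had 0.718 FPKM, and FABP4, a fat cell gene, was listed at 0. Among the 6 steroid receptor genes, 5 were at or above 1 FPKM with a median of 13.1 FPKM, and PGR was highest at 68.5 FPKM. These lists were chosen with earlier results of these data known. They were set beside all genes listed, of which 46.9% were at or above 1 FPKM. Of protein-coding genes, the closer comparison, 60.2% were at or above 1 FPKM. No list was tested.

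**Figure D4:**
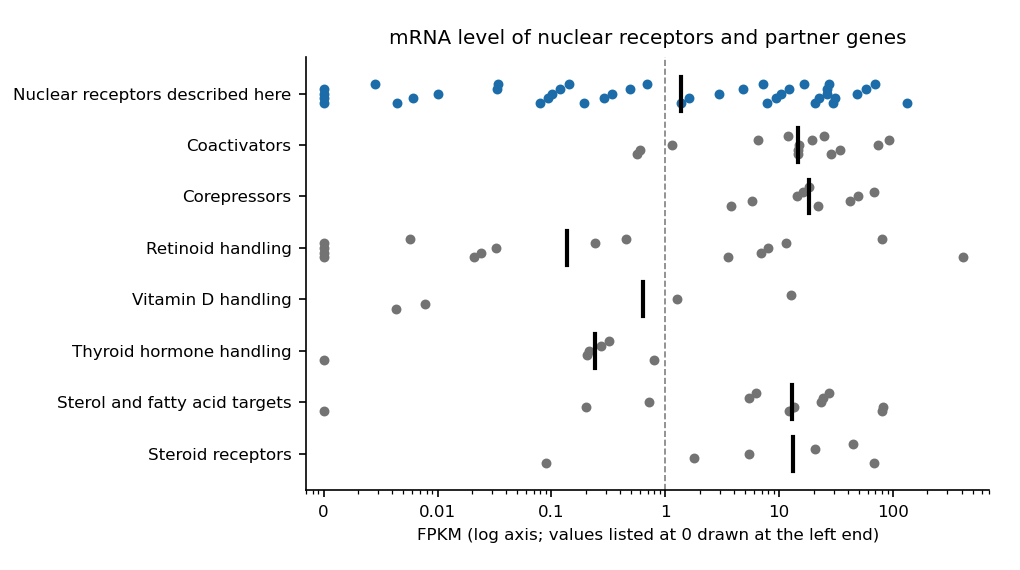
FPKM on a log axis of the 41 nuclear receptors and of genes in 7 partner lists, 1 point per gene, with vertical bars for list medians, values listed at 0 drawn at the left end and a dashed line at 1 FPKM. Medians are 14.8 FPKM for coactivators and 18.3 FPKM for corepressors, and 0.137 FPKM for retinoid handling, whose highest gene is CRABP2 at 407 FPKM.

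The labelled cell type was set beside marker genes, which were listed with earlier results of these data known. All 9 luminal breast epithelial markers were at or above 1 FPKM, from 44.1 to 1142 FPKM, and none of 4 basal markers was, with KRT5 and KRT14 listed at 0. Of 4 markers of other lineages, COL1A1 was the sole gene at or above 1 FPKM, at 8.82 FPKM, and of 3 hepatocyte markers ALB had 1.49 FPKM and the others 0.017 FPKM or less.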

How the data were processed

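The TSS calls of Start-seq replicate 1 and the RNA-seq levels of T47D/A1-2 cells were analysed. FAIRE-seq, MNase-seq and Start-seq replicate 2 were not analysed here. Per the labels and the study's methods, reads with a mean quality under 20 and adapter sequence were removed (Cutadapt 1.2.1). Start-seq reads were aligned to hg19 with Bowtie 0.12.8, and positions with at least 5 reads were called. The deposited calls are single positions with a score of 0 throughout, so they carry no read counts. The deposited RNA-seq unit is FPKM, computed by the authors with Cufflinks 2.2.1 after alignment with TopHat2 2.0.4, removal of duplicates with Picard and merging of 3 replicates.

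Each gene TSS was joined to the gene with the nearest annotated start on its strand, within 1000 nt, in GENCODE lifted to GRCh37. Of 10391 gene TSSs, 10245 were joined to a listed gene, with RefSeq synonyms used for older symbols. Antisense TSSs were joined by their shared identifier. In the expression table, 17 members share a locus entry with another gene. Shares have exact Clopper-Pearson 95% intervals, which cover counting error only. Log2 FPKM used a pseudocount of 0.1. No test was run, because there was 1 condition and 1 value per gene. All members and all their gene TSSs are named. Members and lists were chosen with earlier results of these data known. The calculations were tested on simulated data. Python 3.11.15, numpy 2.4.6, pandas 2.3.3, scipy 1.17.1 and matplotlib 3.10.9 were used. The alternatives were other rules and distances for joining gene TSSs, other minimum FPKM values and pseudocounts, 1 unit per gene, removal of crowded gene TSSs, and other sequence windows.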

Additional observations from a re-analysis of the deposited data

How the results depend on the processing

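Of 21 alternatives, 20 left the members' value within its 95% interval or, for a count of members, within 1.5 times. The intervals are wide, for example 20.7 to 57.7% for the daTSS share and 208 to 1263 nt for the median daTSS distance. Staying within them is therefore a weak check. For mean GC content the interval was that of the median. The exception was the share of gene TSSs with AGGTCA, which was 37.9% in a window of 500 nt on each side, beside 34.1% of all gene TSSs. That window is longer by construction. The 23 members with a gene TSS were 23 under all 3 other joining rules. With a minimum FPKM of 0.1, 29 members passed, beside 57.0% of all genes listed, and with a minimum of 5, 17 members passed, beside 35.7% of all genes listed. Median log2(FPKM + 0.1) was 0.55 for members and -0.67 for all genes, but 1.61 and 2.48 among genes listed above 0, so the order of the medians depends on genes listed at 0. The uaTSS share was 41.4% to 53.8% and the daTSS share 27.6% to 47.8%. The removal of antisense TSSs within 100 nt of an annotated start was chosen after seeing the data. No paired analysis was possible because the FPKM is a single merged column and the calls are from 1 library, and for the same reason no replicate could be left out.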

Other observations

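Over the members' 29 gene TSSs, GC content from 250 nt before to 50 nt after averaged 65.7% ± 10.7 (SD over gene TSSs), beside 65.5% ± 9.2 over all. It ran from 44.7% at the most upstream gene TSS of NR2F2 to 84.0% at RXRA. The ratio of observed to expected CpG was over 0.6 at 23 of 29 (79.3%), beside 86.9% of all. The called position lay a median of 29 nt from the nearest annotated start, beside 10 nt over all gene TSSs, and 21 of 29 (72.4%) were within 100 nt, beside 81.8% of all.

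Gene TSSs of members with a uaTSS had a median of 21.5 FPKM (n = 14) and those without had 12.2 FPKM (n = 15), beside 19.5 and 13.7 FPKM over all. With a daTSS the members' median was 12.2 FPKM (n = 11) and without it 21.5 FPKM (n = 18), beside 18.3 and 16.3 FPKM over all. These differences were not tested.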
